A study of Bos taurus with 8 samples.

Results

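MicroRNA miR-22 was measured in mammary tissue through its 2 mature arms, bta-miR-22-5p and bta-miR-22-3p, which are cut from the opposite sides of 1 hairpin. The arms were found by name among the 763 bovine miRNAs of the array and in the deposited value table, and together they have 4 of its 1657 probes. Both arms were among the 270 miRNAs that were well above background on the 4 arrays of one breed or both, and only these were tested. The tissue came from the udders of non-pregnant heifers free of clinical mastitis, 4 Holstein-Friesian (a dairy breed) and 4 Limousin (kept for beef). The sample characteristics give an age of 20 months and the protocol gives 2 years. Each animal had its own one-colour array, the labels call the animals of a breed biological replicates, and no treatment or genotype is given. The comparison asks whether the arms differ between a milk and a meat breed before the first calving. In bulk tissue, fewer cells of a type and less RNA per cell cannot be told apart.

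A miRNA hairpin is cut by Drosha and Dicer into a duplex, and Argonaute usually keeps 1 strand, the guide, while the other is mostly lost. For miR-22 the 3p arm is the usual guide in mammals. It is reported to repress ESR1, the estrogen receptor that drives growth of the mammary ducts, in human breast cancer cells. In mouse mammary gland miR-22 is reported to be high in progenitor cells, and in human and mouse mammary cells to repress the TET enzymes, through which it lowers the miR-200 family.

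The probes are shown because the measurement of each arm rests on 1 of a pair that differ by a single base. Each is written 5′ to 3′ as the scanner files give it, and the capital marks the base that only the longer probe of a pair has.
bta-miR-22-3p, 16 bases: cagttcttcaactggC
bta-miR-22-3p, 15 bases: cagttcttcaactgg
bta-miR-22-5p, 18 bases: taaagcttgccactgaaG
bta-miR-22-5p, 17 bases: taaagcttgccactgaa

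The array annotation (UMD 3.1) places the longer probes at chr19:23382493-23382507 for bta-miR-22-3p and chr19:23382454-23382470 for bta-miR-22-5p, each span 1 base shorter than its probe. The ends are listed in descending order, opposite to the order for miR-3600 below. In RefSeq's ARS-UCD2.0 table MIR22 overlaps the protein-coding gene TLCD2, and whether the overlap is exonic was not analysed here. No probe of another miRNA shares 10 bases in a row with a miR-22 probe.

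The same place in the genome holds a second miRNA entry, miR-3600, which overlaps MIR22 in RefSeq. Its longer probe is shown because 11 of its 16 bases, in capitals, are the reverse complement of part of the longer miR-22-3p probe.
bta-miR-3600, 16 bases: aagctGCCAGTTGAAG
The annotation puts this probe at chr19:23382453-23382467, on the bases given for bta-miR-22-5p, although its letters pair with the bta-miR-22-3p probe, so positions inside the hairpin are not settled. The 2 probes of miR-3600 were detected on 0 of the 8 arrays, and their highest mean intensity was 4.19.

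A single slide carried the 8 arrays, scanned once. All Holstein-Friesian arrays had the first and all Limousin arrays the second position index, so breed cannot be told apart from position. Limousin arrays were brighter: the 75th percentile of intensity, over probes that every array detected, was 557 to 939 in Holstein-Friesian and 943 to 1579 in Limousin. The number of miRNAs detected was 243 to 267 and 272 to 297. With 4 arrays a breed, precision is limited by their number. All 6 epithelial marker miRNAs (5 of the miR-200 family and miR-205) were detected on all 8 arrays, and the 3 liver and brain markers on none. All 4 stromal markers were detected on all 8, with 3 higher in Limousin, as were 4 of 5 leukocyte markers, with 2 higher, beside 13.7% higher among all tested miRNAs. The detected stromal and leukocyte markers not called were miR-214, miR-150 and miR-223, at log2 differences of 0.0048, 0.022 and -0.15. None of the 6 epithelial markers was called higher or lower, nor any tested marker of contractile cells (3), endothelium (1) or red blood cells (1). After a correction for the GC content and length of the probes the stromal and leukocyte counts were 2 and 1, beside 49 of 270. The 2 stromal markers were then miR-199a-5p, at 0.34 (limma adjusted p = 0.0100), and miR-214, at 0.53 (limma adjusted p = 0.0094). The other stromal markers, miR-199a-3p and miR-199b, were no longer called, and 1 of the 6 epithelial markers was higher. The part of cell composition in the values of miR-22 was not tested.

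On its 16-base probe, bta-miR-22-3p had a background-corrected mean intensity over spots of 98.9, 72.1, 149 and 103 in Holstein-Friesian replicates 1 to 4. In Limousin replicates 1 to 4 it was 202, 286, 138 and 209. Limousin replicate 3 lay below Holstein-Friesian replicate 3, and the other Limousin arrays lay above every Holstein-Friesian array. These intensities carry the brightness of each array. The signals of each array were therefore scaled so that this 75th percentile was equal on all 8, and put on a log2 scale.

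After this scaling the signal of bta-miR-22-3p was 7.24, 6.96, 7.25 and 7.32 in Holstein-Friesian and 7.37, 7.44, 7.13 and 7.33 in Limousin. The breeds overlapped, with Holstein-Friesian replicate 2 lowest and Limousin replicate 2 highest. The means were 7.19 ± 0.16 (SD, n = 4) and 7.32 ± 0.13 (SD, n = 4). The log2 difference, Limousin minus Holstein-Friesian, was 0.13 (SE 0.12; limma adjusted p = 0.447), a ratio of 1.09 with a 95% confidence interval from 0.904 to 1.32. A difference of up to 1.32-fold is thus within the interval, and equality of the breeds is not shown.

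The bta-miR-22-5p arm, the usual passenger strand, was weaker against the detection limit. On its 18-base probe the intensity was 24.6, 26.2, 44.5 and 28.0 in Holstein-Friesian and 58.8, 71.1, 40.4 and 60.8 in Limousin. Holstein-Friesian replicate 3 and Limousin replicate 3 again crossed. The lowest detected probe of an array had an intensity of 16.5 to 19.7, and the arm lay 1.39 to 2.26 times above it in Holstein-Friesian and 2.44 to 4.13 times in Limousin.

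Scaled, bta-miR-22-5p was at 5.23, 5.50, 5.51 and 5.44 in Holstein-Friesian and at 5.59, 5.44, 5.37 and 5.55 in Limousin on the log2 scale. The breeds overlapped, and Holstein-Friesian replicate 1 was lowest. The means were 5.42 ± 0.13 (SD, n = 4) and 5.49 ± 0.10 (SD, n = 4), with a log2 difference of 0.066 (SE 0.11; limma adjusted p = 0.667). The ratio was 1.05, with a 95% confidence interval from 0.879 to 1.25.

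**Figure D1:**
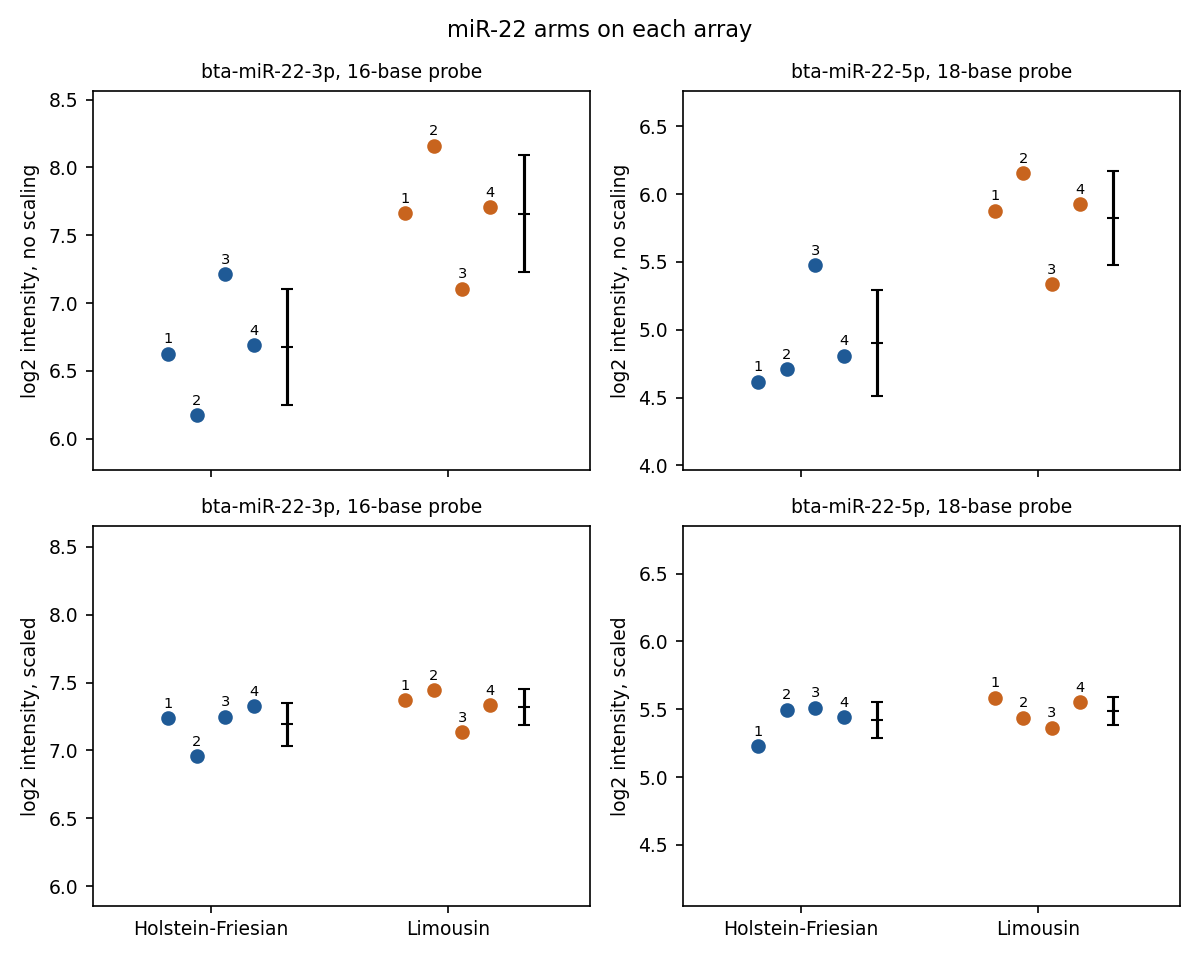
Log2 intensity of the longer probe of each arm on every array, before scaling (top) and after it (bottom); points carry the replicate number, and bars give the mean ± SD of 4 arrays. Without scaling the arms were higher on most Limousin arrays, and after it the breeds overlapped, at 7.19 and 7.32 for bta-miR-22-3p and 5.42 and 5.49 for bta-miR-22-5p.

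Neither arm was therefore called, in a comparison where 113 of the 270 tested miRNAs were (41.9%), 37 higher (13.7%) and 76 lower in Limousin. For 99 of the 270 (36.7%) every array of one breed was above every array of the other, which held for neither arm. Of the 269 other tested miRNAs, 60 had a smaller absolute difference than bta-miR-22-3p and 30 a smaller one than bta-miR-22-5p. The spread within breeds was also small, with a pooled SD of 0.15 for bta-miR-22-3p and 0.12 for bta-miR-22-5p, beside a median of 0.21 over the 270. The median log2 difference of the 270 was -0.069, so the arms lay 0.20 and 0.13 above it.

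**Figure D2:**
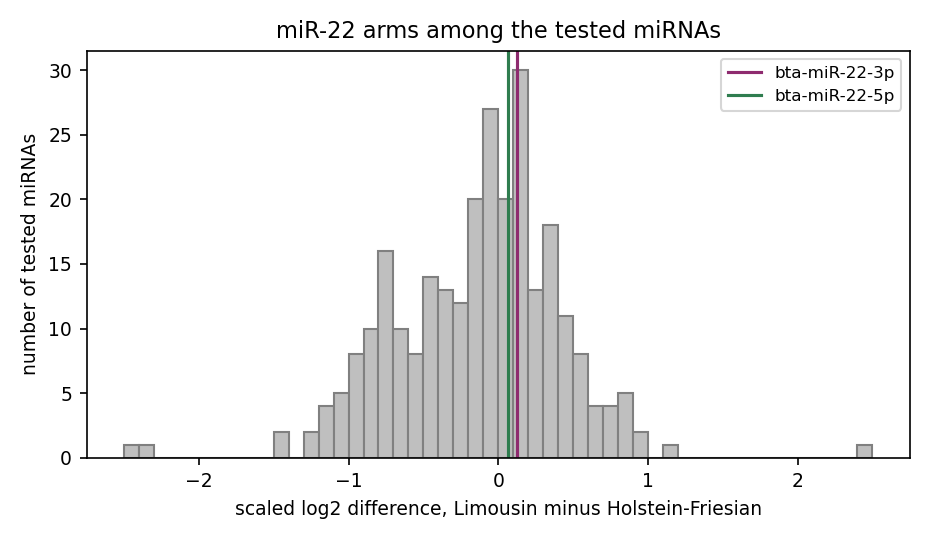
Number of the 270 tested miRNAs by their scaled log2 difference, Limousin minus Holstein-Friesian, in steps of 0.1; the lines mark the 2 arms of miR-22. The arms lie at 0.13 and 0.066, near the middle, to the right of the median of -0.069.

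The call depended on how the arrays were put on one scale. With no scaling both arms were higher in Limousin, by 0.98 for bta-miR-22-3p (limma adjusted p = 0.0028) and 0.92 for bta-miR-22-5p (limma adjusted p = 0.0045), as were 173 of the 270, with 2 lower (64.8% called in all). With the 75th percentile taken over all probes the differences were 0.46 and 0.40 (limma adjusted p = 0.0222 and 0.0327), and 49.6% of miRNAs were called, 104 higher and 30 lower. Under quantile normalization, median scaling and cyclic loess neither arm passed, but the differences of both lay above the 0.13 and 0.066 given earlier. Quantile normalization gave 0.26 for bta-miR-22-3p and 0.29 for bta-miR-22-5p (limma adjusted p = 0.0797 and 0.0874). Median scaling gave 0.21 and 0.15 (limma adjusted p = 0.273 and 0.431). The differences with cyclic loess were 0.23 and 0.31 (limma adjusted p = 0.155 and 0.0950). Of the 270, quantile normalization called 55 higher and 43 lower, and cyclic loess 45 and 59. A constant per array moves every miRNA alike, so with no scaling and with either percentile bta-miR-22-3p stayed 0.20 and bta-miR-22-5p 0.13 above the median of the 270.

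The authors' deposited value table holds, for each miRNA, its total Agilent signal on the log2 scale less a constant per array. The 75th percentile of each array over all its rows, detected or not, was -0.022 to -0.00097. The constant thus lies near the 75th percentile over all miRNAs, much as with the percentile over all probes. These settings are therefore not separate evidence. On the deposited table bta-miR-22-3p was at 0.30, 0.16, 0.40 and 0.46 in Holstein-Friesian and at 0.88, 0.96, 0.55 and 0.80 in Limousin. The lowest Limousin value was above the highest Holstein-Friesian value. For bta-miR-22-5p the values were -1.71, -1.30, -1.34 and -1.42 against -0.73, -0.87, -1.21 and -0.78, again without overlap. How many of the 270 were without overlap on this table was not counted, so the separation is not read as particular to miR-22. On this table the log2 differences were 0.47 and 0.55 (limma adjusted p = 0.0154 and 0.0173), with 40.4% of the 270 called, 81 higher and 28 lower. The median difference of the 270 was 0.25 on this table, and the same total signal scaled over the miRNAs detected on all arrays gave 0.17 and 0.25 for the arms (limma adjusted p = 0.258 and 0.143).

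The settings without Agilent's background correction moved the median of all tested miRNAs down, and both arms with it. The authors' software took off 53.2% to 67.2% of the uncorrected spot signal of bta-miR-22-5p in Holstein-Friesian and 41.7% to 54.8% in Limousin. For bta-miR-22-3p it took off 25.5% to 40.7% and 15.1% to 26.2%. Without correction bta-miR-22-5p was lower in Limousin, at a difference of -0.39 on the log2 scale (limma adjusted p = 0.0137), and 63.0% of the 270 were called, 27 higher and 143 lower. With normexp, which models background and adds an offset, it was at -0.42 (limma adjusted p = 0.0112), with 63.7% called, 26 higher and 146 lower. The median difference of the 270 was -0.36 without correction and -0.38 with normexp, and bta-miR-22-5p lay at -0.033 and -0.038 from it. The differences of bta-miR-22-3p were then -0.083 and -0.11 and did not pass, 0.27 above the median in both.

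**Figure D3:**
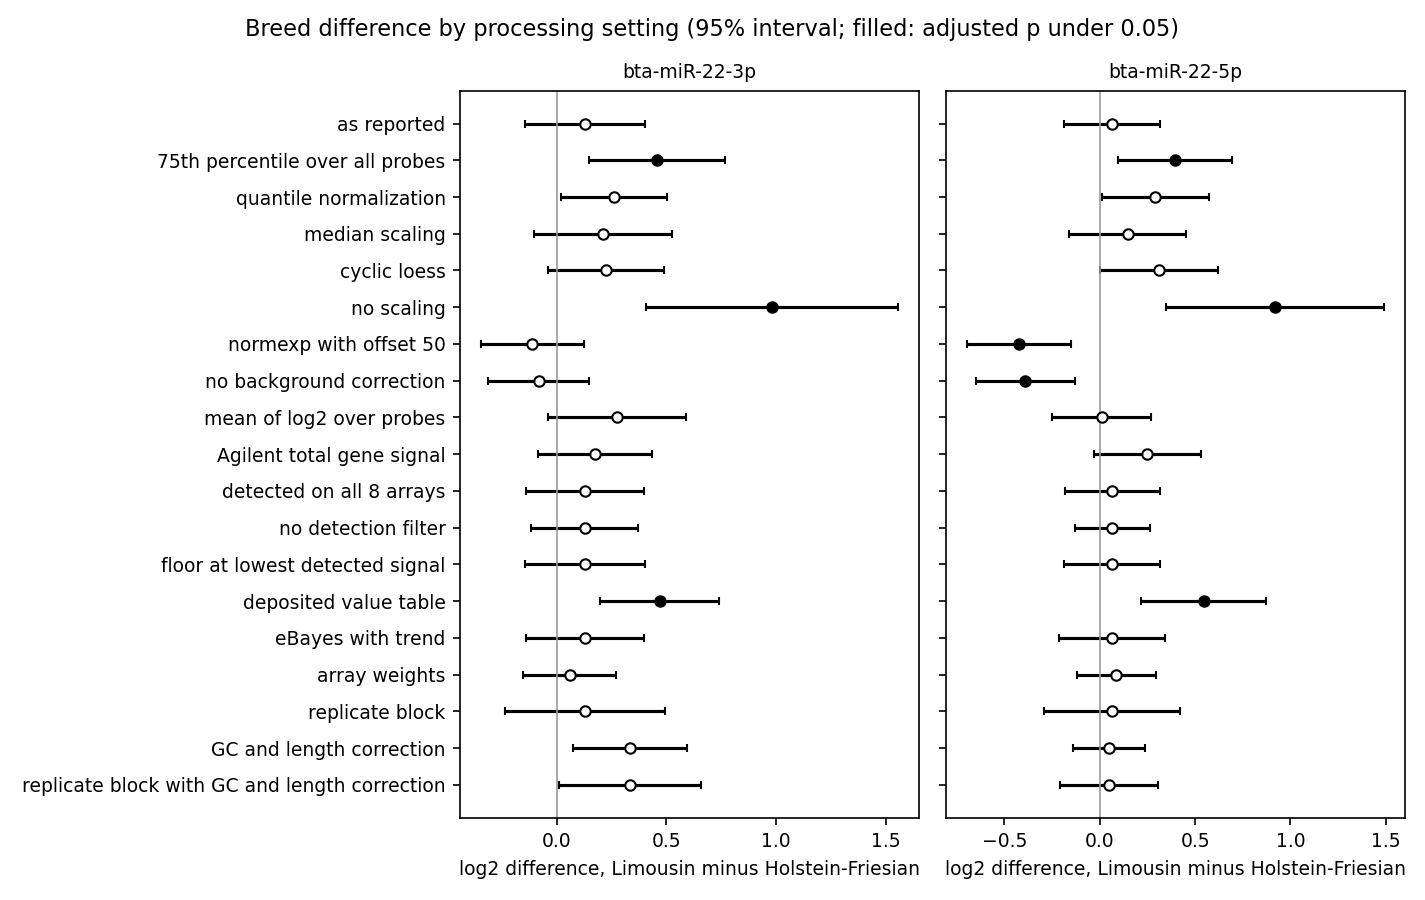
Log2 difference of each arm, Limousin minus Holstein-Friesian, with its 95% interval under each processing setting that uses all 8 arrays; filled points have an adjusted p under 0.05. Both arms pass on the positive side with no scaling, the percentile over all probes and the deposited table, and bta-miR-22-5p passes on the negative side with normexp and without background correction.

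The ratio of the arms within an array does not depend on a scale factor. Because each arm has its own probe, the size of the ratio says nothing of which arm was more abundant, and only its difference between arrays was read. The log2 ratio of bta-miR-22-3p over bta-miR-22-5p was 2.01, 1.46, 1.74 and 1.88 in Holstein-Friesian and 1.78, 2.01, 1.77 and 1.78 in Limousin. The Holstein-Friesian arrays covered the whole Limousin range. The means were 1.77 ± 0.23 (SD, n = 4) and 1.83 ± 0.12 (SD, n = 4), a log2 difference of 0.062. A two-sided exact permutation test over the 8 arrays gave p = 0.714, where the smallest p that 4 against 4 allows is 0.0286.

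Without Holstein-Friesian replicate 2, whose bta-miR-22-3p lay 0.23 below its breed's mean while its bta-miR-22-5p lay 0.078 above, the difference in log2 ratio turned to -0.041. After each array was corrected for the GC content and length of its probes, the ratio was 1.43 to 1.80 in Holstein-Friesian and 1.81 to 2.11 in Limousin, a difference of 0.29 without overlap (exact permutation p = 0.0286). That correction moved bta-miR-22-3p to 0.33 (limma adjusted p = 0.0553) and left bta-miR-22-5p at 0.049. The correction is fitted to each array over many miRNAs, and the probes of the arms differ in GC content (50% and 44.4%) and length. The change in the ratio is thus a fitted term, and whether it brings the ratio closer to the true one was not tested.

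**Figure D4:**
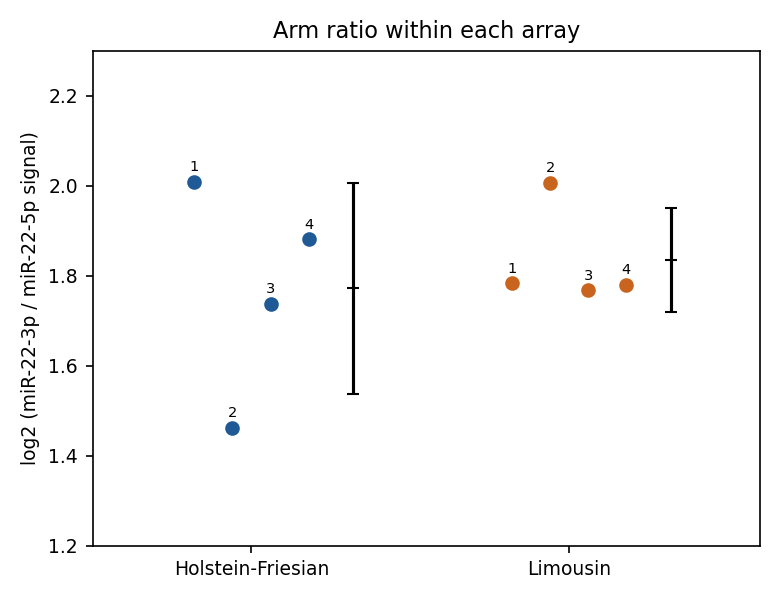
Log2 ratio of the bta-miR-22-3p to the bta-miR-22-5p signal within each array; points carry the replicate number, and bars give the mean ± SD of 4 arrays. Holstein-Friesian spans 1.46 to 2.01, and 3 Limousin arrays lie at 1.77 to 1.78 with the other at 2.01.

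The pair of probes of an arm behaved very differently, although they share all but 1 base. The 16-base probe of bta-miR-22-3p was well above background in all 30 of its spots on all 8 arrays, and the 18-base probe of bta-miR-22-5p in at least 29 of 30. The coefficient of variation over the spots of a probe within an array was 4.03% to 11.8% for the first and 6.74% to 16.6% for the second.

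The 15-base probe of bta-miR-22-3p was detected on 1 array, Limousin replicate 2, with 22 of 30 spots well above background, and its intensity ran from 3.31 to 19.7. The 17-base probe of bta-miR-22-5p was detected on 0 arrays, with intensities of 5.42 to 14.6. Neither entered the test, and no fold is given for them. In a fit over 495 probes that met the same detection rule, 199 were called (40.2%). The longer probes of the arms were not, with limma adjusted p of 0.447 for bta-miR-22-3p and 0.687 for bta-miR-22-5p.

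The miRNAs whose profile over the 8 arrays was nearest to that of bta-miR-22-3p were miR-186, miR-23a, miR-27a-3p, miR-130a and miR-10a. Likeness was the root mean square difference between log2 profiles, each centred on its own mean. It was 0.081 for miR-186 and 0.11 for miR-10a, beside a median of 0.32 over 269 miRNAs. For bta-miR-22-5p the nearest were miR-151-3p and miR-151-5p, the arms of another hairpin, followed by miR-182, miR-28 and miR-19b, at 0.064 to 0.092 (median 0.28). The arms of miR-22 were less near to each other, at 0.16, the 24th nearest to bta-miR-22-3p and the 48th nearest to bta-miR-22-5p. This measure is small for any pair of flat profiles, and the breed differences of the nearest miRNAs were only -0.0072 to 0.17. It therefore does not show that other miRNAs vary with an arm, or that the arms vary apart.

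Within 1 Mb of the miR-22 probes the annotation places 6 other miRNAs. Of these, miR-2335, miR-2336, miR-2337, miR-3600 and miR-212 were detected on 0 arrays. The remaining one, miR-132, which comes from the same transcript as miR-212 in mammals, was well above background on all 4 Limousin arrays and 1 Holstein-Friesian array. It entered the test through the Limousin arrays alone, so its fitted difference is not given as a result. With signals raised to the lowest detected one it was 0.17 on the log2 scale (limma adjusted p = 0.308).

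Other miRNAs reported to repress ESR1 in breast cells were set beside miR-22. All 13 were on the array, and 9 were tested. In Limousin 3 of them rose, none of the other 6 passed, beside 13.7% higher among all tested miRNAs, and their median log2 difference was 0.18 beside -0.069. Those that rose were let-7i, by 0.70 (SE 0.14; limma adjusted p = 0.0043), and the clustered pair miR-222, by 0.50 (SE 0.11; limma adjusted p = 0.0066), and miR-221, by 0.45 (SE 0.11; limma adjusted p = 0.0094). These 3 passed under each of the 5 other scalings, but with normexp miR-222 and miR-221 were each at 0.21 (limma adjusted p = 0.117 and 0.119), and without background correction each at 0.25 (limma adjusted p = 0.0619 and 0.0684). With the mean over probes miR-221 was at 0.34 (limma adjusted p = 0.0629). After the GC and length correction let-7i was at 0.38, miR-222 at 1.06 and miR-221 at 0.54, all 3 still past the threshold. The median of the list was then 0.016. With cyclic loess that median was -0.058 and 1 member was called lower. The list had 8 members higher with no scaling, 6 with the percentile over all probes and 5 on the deposited table, beside 173, 104 and 81 of the 270. The tested members that did not pass were miR-145, at -0.23, miR-20b, at -0.45, and let-7a-5p, let-7b, miR-19b and miR-18a, at 0.12 to 0.20. The 4 not detected on any array were miR-18b, miR-193b, miR-206 and miR-302c.

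The mammary progenitor list held miR-205, reported to be high with miR-22 in mouse mammary progenitor cells, and miR-93 and the let-7 family with miR-98, reported to be low there. All 11 were tested, 2 rose and 9 did not pass, a share near the 13.7% higher among all tested miRNAs. Whatever their p, all 11 differences were above 0, beside 117 of the 270. Most of the list is the let-7 family, so the 11 signs are not separate observations. With cyclic loess let-7a-5p, let-7b, let-7c and let-7d were below 0, at -0.058, -0.11, -0.052 and -0.0064. After the GC and length correction let-7a-5p, let-7d, let-7f and miR-98 were below 0, at -0.060, -0.038, -0.071 and -0.10. In each of these settings the rest of the list stayed above 0. The 2 that rose were let-7i and let-7e, the latter by 0.38 (SE 0.11; limma adjusted p = 0.0208). The difference of miR-205 was 0.22 (limma adjusted p = 0.248) and that of miR-93 was 0.15 (limma adjusted p = 0.431). The median of the list was 0.22 beside -0.069, and it was 0.067 with cyclic loess and 0.016 after the GC and length correction. Because the list joins miRNAs reported high and low in progenitor cells, its median and counts do not measure the share of such cells. Of the 11, 10 were called higher on the deposited table, beside 81 of the 270, and all 11 with the percentile over all probes, beside 104. The median of all 270 was itself 0.25 and 0.26 there.

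The miR-200 family, guardians of epithelial identity, is reported to lie downstream of miR-22 through the TET enzymes. All 5 members were tested and 0 passed by limma, beside 41.9% of all tested miRNAs; 0 also had an unadjusted p under 0.05. They ran from -0.19 for miR-429 (limma adjusted p = 0.307) to 0.24 for miR-141 (limma adjusted p = 0.302), with miR-200c at -0.17 (limma adjusted p = 0.227). Their median was -0.035, and it was -0.16 with cyclic loess but above 0 with median scaling, at 0.046, and on the deposited table, at 0.25. All 5 were called higher with no scaling, beside 173 of the 270, and 2 with the percentile over all probes, beside 104, and 1 was called lower with quantile normalization and with cyclic loess.

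**Figure D5:**
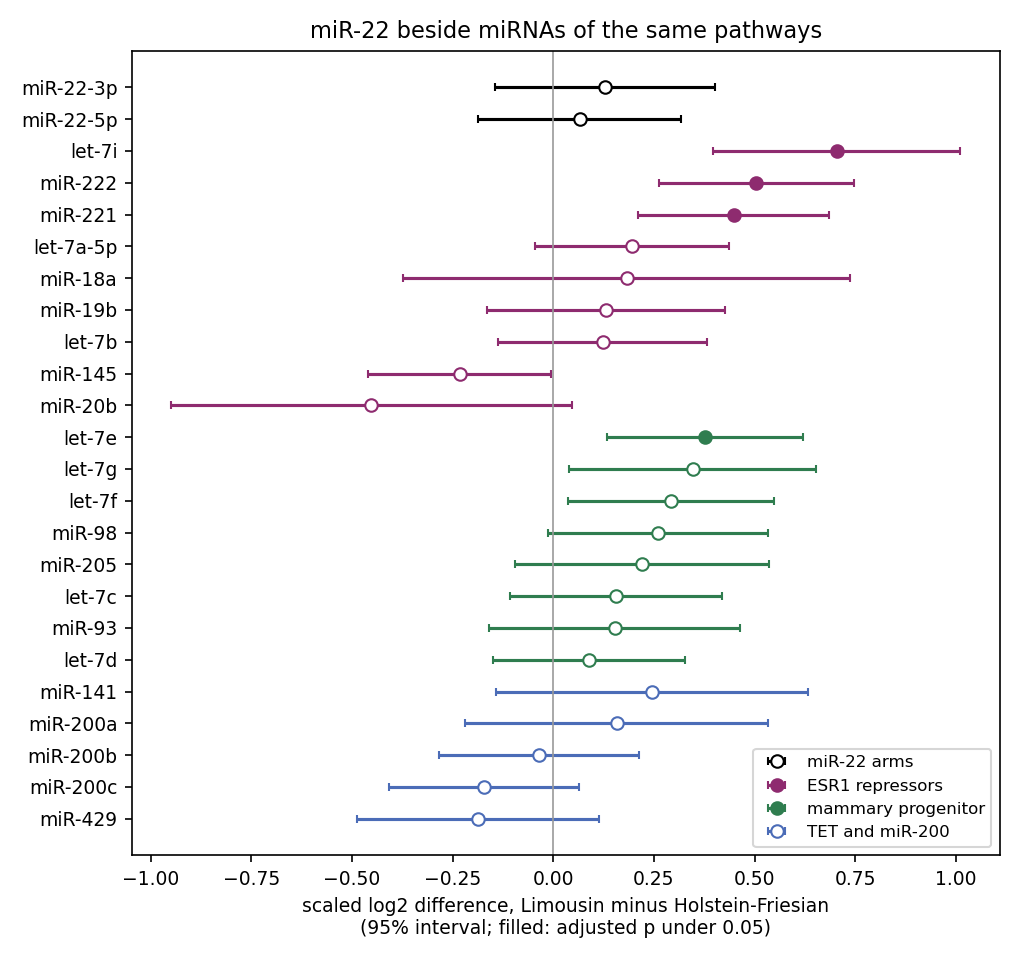
Scaled log2 difference, Limousin minus Holstein-Friesian, with its 95% interval for the arms of miR-22 and the tested members of the 3 lists; filled points have an adjusted p under 0.05. The arms lie at 0.13 and 0.066 with intervals across 0, and let-7i, miR-222, miR-221 and let-7e pass; let-7i, let-7a-5p and let-7b belong to both of the first 2 lists and are drawn once.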

How the data were processed

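The authors scanned the arrays with Agilent software, Feature Extraction 10.10.1.1 per the file headers. The deposited spot intensity was corrected for a spatially fitted background, with no normalization between arrays. The deposited value table holds log2 values. Per the values, each column is log2 of the total signal per miRNA minus a constant, to within 9.7e-06. Its column medians run from -9.79 to -8.53 and its column 75th percentiles from -0.022 to -0.00097. Its columns are single samples, so its direction is known.

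Spots flagged as outliers and control spots were left out, and the remaining spots averaged per probe. A probe was detected on an array when over 50% of its spots were well above background, and a miRNA when any of its probes was. Scaled values under 1 were set to 1 before log2, and of each miRNA the probe with the highest mean was used. Breed was the only term of a limma 3.58.1 fit (R 4.3.3; lmFit, eBayes) over the 270 miRNAs, with Benjamini-Hochberg adjustment at 0.05. The fit was tested on simulated data. Named miRNAs are the arms, the 5 nearest in profile, those within 1 Mb, and list members; of each list the 2 with the smallest p were to be named, and any others were chosen knowing their values. The miRNAs and lists were chosen with earlier results of these data known. Alternatives covered scaling, background, probe summary, detection filter, floor, the deposited table, probe GC content and length, model settings, the replicate block and leaving out each array. Mature sequences and shared seeds were not analysed here.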

Additional observations from a re-analysis of the deposited data

Results flagged for a closer look

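Among the 4 Limousin arrays, replicate 2 stood apart in the log2 ratio of bta-miR-22-3p over bta-miR-22-5p, at 2.01 against 1.77 to 1.78 in the others. The same check was made on 80 sets of 4 arrays and found 1 such value; by chance about 1 in 20 sets would give one. This array had the highest 75th percentile of intensity, 1579, and was the only one on which the 15-base probe of bta-miR-22-3p was detected. Without it the breed difference in log2 ratio was 0.0047. The part of brightness in this value was not tested.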

How the results depend on the processing

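The difference of bta-miR-22-3p stayed positive and short of the threshold in 21 of 26 alternatives. It passed at 0.46 with the percentile over all probes, 0.98 with no scaling and 0.47 on the deposited table, and turned to -0.11 with normexp and -0.083 without background correction. For bta-miR-22-5p the same 3 settings gave 0.40, 0.92 and 0.55, the last 2 gave -0.42 and -0.39, both past the threshold, and the other 21 did not pass. The detection filters, the floor, the eBayes trend and the replicate block left the differences of both arms unchanged, and leaving out 1 array kept the scaling. The 21 are thus not separate checks of the sign. The difference in log2 arm ratio turned to -0.029 with quantile normalization, -0.084 with cyclic loess, and -0.076 with the total signal and on the deposited table; it passed at 0.29 after the GC and length correction, and the exact p was 0.0571 with normexp and without background correction. The number of miRNAs called, 113, went to 175 with no scaling (173 higher, 2 lower), 172 with normexp (26 and 146), 170 without background correction (27 and 143), 80 after the GC and length correction (49 and 31) and 61 when this was joined to the replicate block (37 and 24). Causes were not tested. Leaving out 1 array gave 0.050 to 0.19 for bta-miR-22-3p, 0.0014 to 0.11 for bta-miR-22-5p, with no call, -0.041 to 0.14 for the log2 ratio, and 71 to 148 miRNAs called, with 71 without Limousin replicate 1 and 73 without Holstein-Friesian replicate 4. Both breeds number their replicates 1 to 4, but same-numbered arrays deviated together in only 1 of 4 pairs (r = -0.45 to 0.32), and 2 of 8 arrays correlated best with their own number. With the replicate block 84 miRNAs were called, and the arms kept differences of 0.13 and 0.066 (limma adjusted p = 0.584 and 0.766); miR-221 and let-7e did not pass there (limma adjusted p = 0.0512 and 0.0823). The trend and weight settings do not apply to the ratio. The signal of bta-miR-22-5p, as little as 1.39 times the lowest detected, limits what can be said of it.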
